A study of Astyanax mexicanus with 78 samples.

Results

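The heart of young Pachón cavefish was compared with the heart of young surface fish of *Astyanax mexicanus*, the Mexican tetra. The species lives as a blind form in caves, of which Pachón is one, and as an eyed form in rivers. RNA was taken from 5 tissues of both populations, at an age of about 1 year (young) or 7 to 8 years (aged), and population and age were the only factors that the labels name. Of the 78 libraries of the series 16 were from heart, and 7 of these were compared: replicates 2, 3 and 4 of the young Cave morph and replicates 1 to 4 of the young Surface morph. The libraries were chosen by their labels, except that young cave heart replicate 1 was left out because its counts had the profile of liver. Aged hearts (4 libraries of each population) and young skeletal muscle (4 of each) were set beside the young hearts. The populations differ throughout their genomes, so each difference is one between these populations and cannot be assigned to any particular allele. The labels do not say whether each library came from a separate fish, and p-values therefore measure the spread between these libraries, which may be technical in part.

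A fish heart pumps with a single atrium and a single ventricle whose muscle cells contract without rest, and it holds endocardial cells, epicardium, fibroblasts, blood cells and the elastic outflow chamber called the bulbus arteriosus. Its muscle cells draw ATP mainly from mitochondrial oxidation of fatty acids, lactate and glucose, and glucose and lactate enter through membrane carriers. Cavefish are known for altered glucose control, fat storage and short sleep, and the comparison asked how far their cardiac transcriptome differs from that of surface fish before aging.

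Total counts were 8996653, 8253007 and 7877456 in cave replicates 2 to 4 and lay between 9011568 and 11163901 in the 4 surface libraries, so the cave libraries were all shallower. The share of counts on 33 heart-specific genes (at least 100 CPM in heart and 16 times the median of each other tissue) was 7.52% to 17.5% in cave libraries and 8.37% to 15.2% in surface libraries, against 0.00191% in the left-out replicate. That replicate had 81.5% of its counts on liver-abundant genes, defined as 990 genes with a median at least 4 times higher in liver than in heart. In the libraries compared this share was 5.94%, 1.2% and 0.358% in cave replicates 2 to 4, and 0.836%, 0.414%, 0.509% and 2.37% in surface replicates 1 to 4. The groups overlapped, and liver-abundant genes were kept apart throughout. In cave replicate 3, 83 genes had at least 20 CPM and were at least 8 times higher than in cave replicate 4 and each surface library (5 CPM added to both sides). They took 4.43% of its counts, against at most 0.378% in the other cave libraries and at most 0.161% in surface libraries. The gap to cave replicate 4 and the surface libraries follows from that choice. Cave replicate 2, at 0.378%, had no part in it. No count by this rule was made for another library. Gut-specific genes, chosen by the rule of the heart-specific ones and with apoa1a among them, took 0.494% of the counts of cave replicate 3. They took no more than 0.0803% in any other library compared. The largest 95% Clopper-Pearson half-width of any of these shares was 0.0265 percentage points, for counting error only. Many results below are therefore also given without cave replicate 3 where that changes them.

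**Figure D1:**
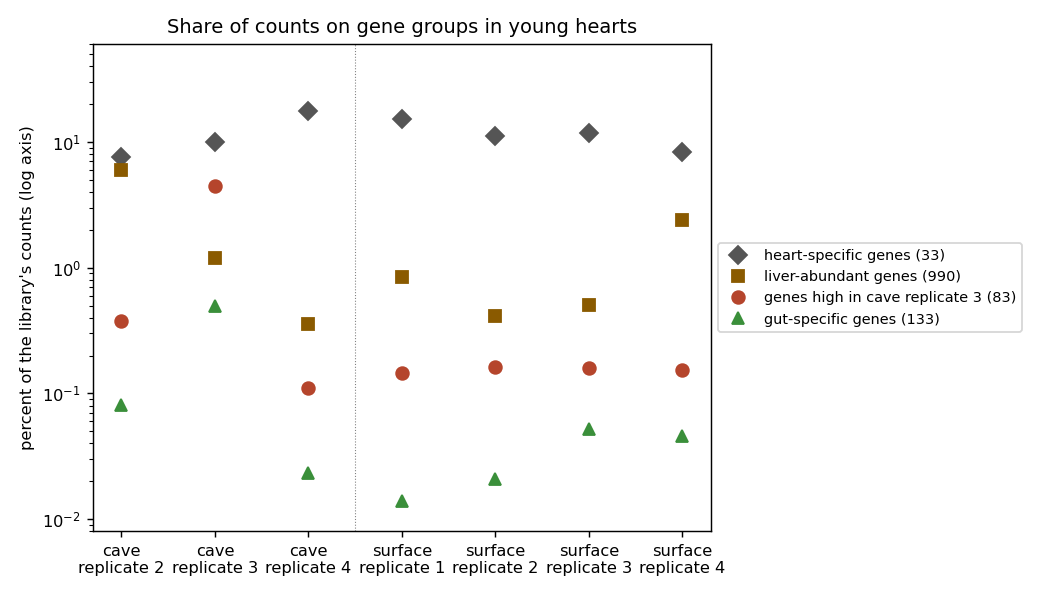
Share of counts (percent, log axis) on gene groups defined by tissue and on the genes high in cave replicate 3, for the 7 young heart libraries compared, with cave libraries left of surface libraries. Cave replicate 2 has 5.94% of its counts on liver-abundant genes. Cave replicate 3 has 4.43% on genes that were chosen for being high in it, and 0.494% on gut-specific genes.

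In the PCA of the 500 most variable genes, PC1 held 42.25% of the variance. Cave replicates 2 to 4 scored -20.4, -51.6 and 1.67, and surface replicates 1 to 4 scored 17.7, 20.8, 21.4 and 10.5. The groups did not overlap, and their means differed by -41.0 score units (two-sided exact permutation p = 0.0571, which no arrangement of 3 against 4 libraries can go below). Leaving out the liver-abundant genes gave a difference of -42.2 on PC1 (exact permutation p = 0.0571). Cave replicate 3 scored farthest from the surface libraries, and no PCA without it was run.

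Among 13431 genes tested that were not liver-abundant, 835 (6.22%) differed between cave and surface hearts by the Wald test of DESeq2 (Benjamini-Hochberg adjusted p under 0.05). Of these, 484 were higher in cavefish (3.6% of genes tested) and 351 were lower (2.61%). The normalized counts of the groups did not overlap for 740 of the 835, and for 2121 of all genes tested (15.8%). The median log2 fold change over the genes tested was 0.01, and fold changes below are log2 values of cave over surface. The quasi-likelihood test of edgeR called 104 of 11986 genes (0.868%), 47 of them higher and 57 lower, and all 104 were among the 835. Without cave replicate 3 DESeq2 called 362 genes (177 higher, 185 lower), of which 336 were among the 835, and without surface replicate 2 it called 515. Without cave replicate 3, 166 of the 484 rises and 170 of the 351 falls were still called. A core of 275 genes (124 higher and 151 lower) was called with all 7 libraries and also with each of them left out in turn. In whole hearts, fewer cells of a type and less RNA per cell cannot be told apart.

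**Figure D2:**
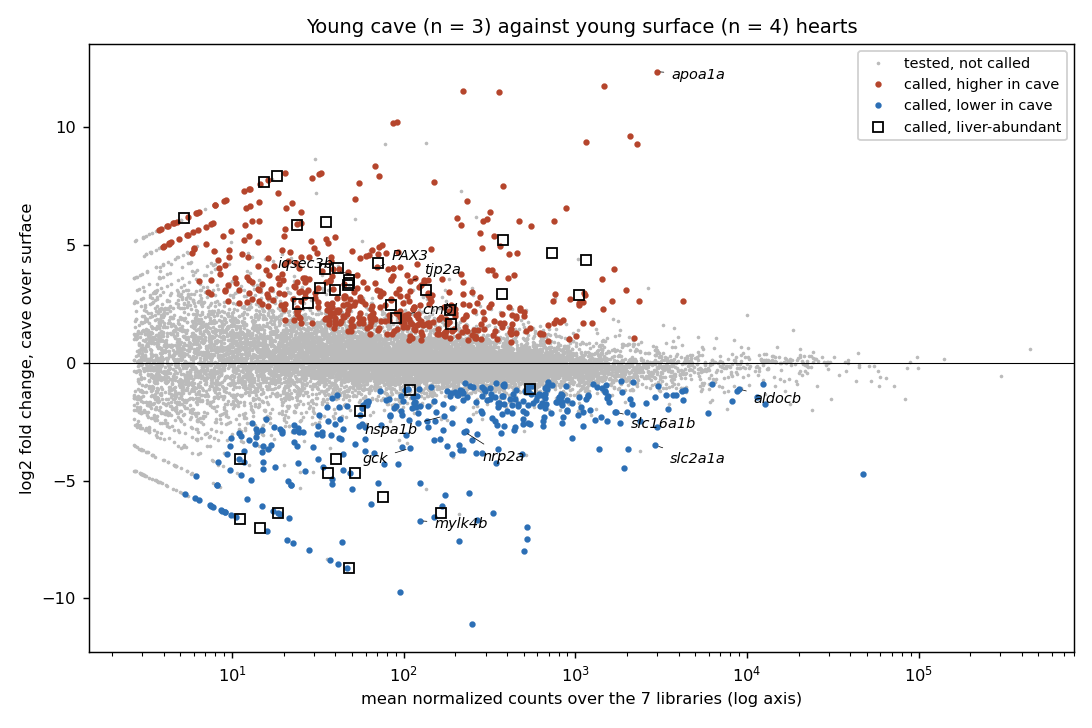
Log2 fold change of young cave over young surface heart (vertical axis) against mean normalized count (horizontal log axis), with 1 point per gene tested, called genes in color, called liver-abundant genes in squares and some named genes labelled. Of 13431 genes that were not liver-abundant, 484 were higher and 351 lower in cavefish.

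A gene symbol was at hand for 1637 of the tested genes, and 123 of these were called (7.51%), 75 higher and 48 lower. Over the 30 gene lists examined, 15 of 221 tested members were called, near that share. Of 22 tested genes of glycolysis and glucose handling 4 fell, beside the 48 of 1637, none rose, and 16 had a negative fold change, with a median log2 fold change of -0.43. The 4 falls were also called with each library left out in turn, and edgeR called none of them. In aged hearts DESeq2 called 3 genes of this list higher and 4 lower in cavefish.

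Slc2a1a encodes the glucose transporter GLUT1, through which glucose enters many cells without insulin. Its normalized counts were 45.0, 822 and 403 in cave replicates 2 to 4, against 6206, 6114, 3170 and 3732 in surface replicates 1 to 4. The highest cave heart lay well under the lowest surface heart, and the cave hearts also differed widely among themselves. The log2 fold change was -3.51 ± 0.75 (SE, adjusted p = 0.000227 by DESeq2, 0.115 by edgeR). Aged hearts had 422, 21.4, 157 and 585 in cavefish, against 4898, 5008, 3460 and 1720 in surface fish, again without overlap (log2 fold change -3.67, adjusted p = 5.27e-05 by DESeq2). Young muscle nearly lacked the transcript, with means of 1.09 normalized counts in cavefish and 0 in surface fish, and gives no comparison for it.

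Slc16a1b encodes a carrier of the MCT1 type that passes lactate and pyruvate across the cell membrane. It had 257, 750 and 797 normalized counts in cave hearts, against 2593, 2144, 3207 and 2337 in surface hearts. All cave hearts lay well below all surface hearts (log2 fold change -2.10 ± 0.45 SE, adjusted p = 0.00028 by DESeq2). The fall was also called in aged hearts (-1.53, adjusted p = 0.0395) and in young muscle (-2.10, adjusted p = 6.41e-05), both by DESeq2. Glucokinase, which phosphorylates glucose and is best known from liver and pancreas, is encoded by gck. Its counts in heart were low, at 34.3, 6.09 and 2.44 in cave libraries and 370, 101, 203 and 41.5 in surface libraries. The groups were separated, but surface hearts spread widely (log2 fold change -3.64 ± 0.92 SE, adjusted p = 0.0032 by DESeq2). In aged hearts gck had 9.01, 19.4, 47.3 and 6.80 in cavefish, against 989, 220, 248 and 107 in surface fish (-4.23, adjusted p = 3.1e-06 by DESeq2).

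Aldocb, an aldolase that cleaves a sugar phosphate in glycolysis, was the fourth. It had 4942, 5509 and 5763 normalized counts in cave hearts, against 14241, 11238, 11413 and 9820 in surface hearts. The cave hearts were close to each other and the log2 fold change was -1.11 ± 0.26 (SE, adjusted p = 0.000964 by DESeq2). No such difference was called in aged hearts, where the fold change was -0.04 (adjusted p = 0.98 by DESeq2). Slc2a1a was also the only gene called among 4 tested genes of the hypoxia response.

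**Figure D3:**
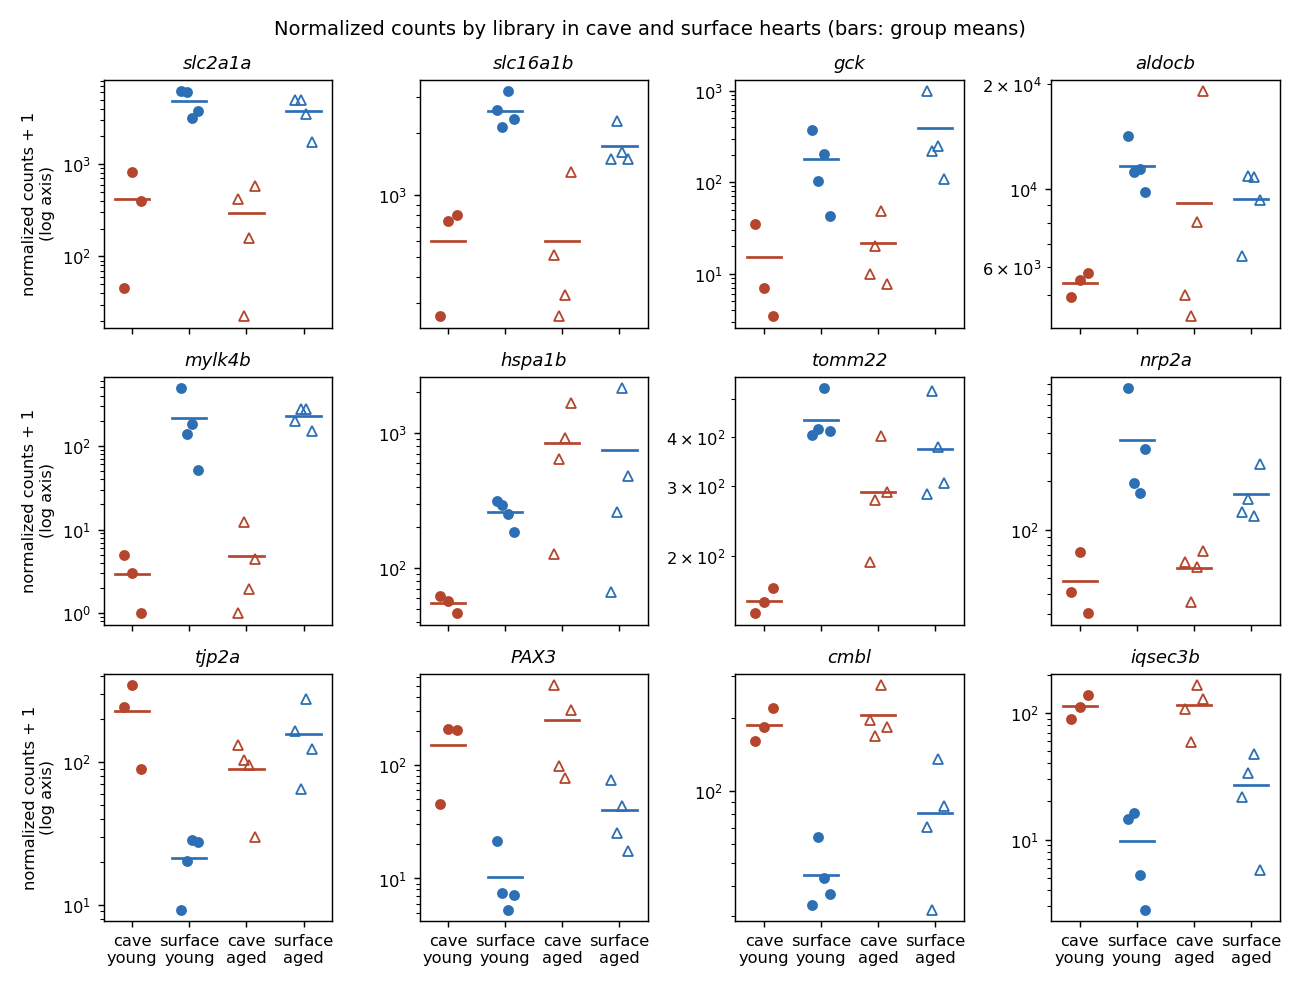
Normalized counts plus 1 (log axis) of 12 named genes in each heart library, with young cave, young surface, aged cave and aged surface libraries from left to right; circles are young, triangles are aged and bars are group means. Slc2a1a lies at 45.0 to 822 in young cave and 3170 to 6206 in young surface hearts, and mylk4b at 0 to 3.91 and 51.2 to 492.

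Of 13 tested genes of heat shock and protein folding 3 fell, beside 48 of 1637 genes with a symbol, none rose, and 11 had a negative fold change, with a median of -0.88 on the log2 scale. The 3 were 2 chaperones, hspa1b and hsp90ab1, and the glutathione-degrading enzyme chac1. Without cave replicate 3 only hspa1b of the list was called, and the median was -0.91. Hspa1b encodes an inducible chaperone of the Hsp70 family. It had 60.7, 55.8 and 45.2 normalized counts in cave hearts, against 314, 290, 249 and 184 in surface hearts. Both groups were tight and far apart, and the fall was called by both tools (log2 fold change -2.26 ± 0.36 SE, adjusted p = 6.32e-08 by DESeq2 and 0.0254 by edgeR). Aged hearts showed no such order, with 126, 644, 920 and 1678 in cavefish and 65.9, 257, 2158 and 483 in surface fish (0.18, adjusted p = 0.947 by DESeq2).

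Hsp90ab1, the constitutive cytosolic Hsp90, had 7469, 8827 and 9005 normalized counts in cave hearts, against 15110, 14516, 14986 and 17410 in surface hearts. The groups did not overlap (log2 fold change -0.88 ± 0.23 SE, adjusted p = 0.00525 by DESeq2, 0.139 by edgeR), but the call was lost without cave replicate 2 (adjusted p = 0.0554), cave replicate 3 (0.11), surface replicate 2 (0.0926) or surface replicate 3 (0.0602), all by DESeq2. The third member, chac1, is induced by stress of the endoplasmic reticulum. It had 903, 399 and 509 in cave hearts, against 1806, 4165, 1230 and 2936 in surface hearts (-2.07 ± 0.52 SE, adjusted p = 0.00289 by DESeq2, and 0.0535 without cave replicate 3). DNAJA4, a co-chaperone of Hsp70 that was named after its values were seen, had 226, 111 and 100 in cave hearts, against 666, 694, 556 and 464 in surface hearts. Cave hearts were all lower (-2.03 ± 0.41 SE, adjusted p = 6.79e-05 by DESeq2, 0.0503 by edgeR).

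Tomm22 encodes a receptor of the outer mitochondrial membrane for proteins that are imported from the cytosol. Its normalized counts were 142, 151 and 165 in cave hearts, against 405, 419, 533 and 413 in surface hearts. Replicates differed little within either population, and both tools called the fall (log2 fold change -1.54 ± 0.27 SE, adjusted p = 3.56e-06 by DESeq2 and 0.0403 by edgeR). It was not called in aged hearts (-0.36, adjusted p = 0.638 by DESeq2). Among 15 tested genes of oxidative phosphorylation DESeq2 and edgeR called none, and 0 of them had an unadjusted p under 0.05 by either tool. Fold changes were negative for 14 of the 15, with a median of -0.25 that became -0.07 when libraries were scaled by their totals.

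The largest named fall was that of mylk4b, a member of the family of kinases that phosphorylate myosin light chains. It had 3.91, 2.03 and 0 normalized counts in cave hearts, against 492, 138, 180 and 51.2 in surface hearts. The transcript was thus near the limit of detection in every cave heart (log2 fold change -6.71 ± 0.99 SE, adjusted p = 4.1e-09 by DESeq2 and 0.0434 by edgeR). In aged hearts it had 0, 11.2, 0.945 and 3.40 in cavefish, against 196, 275, 276 and 148 in surface fish (-5.80, adjusted p = 1.72e-14 by DESeq2). The young muscle fold change was -0.81 (adjusted p = 0.45), and the difference between heart and muscle was -5.89 (adjusted p = 7.21e-05), both by DESeq2. Its paralog mylk4a had 62.6, 41.6 and 178 in cave hearts, against 192, 754, 1159 and 318 in surface hearts. The groups were barely separated (-2.69 ± 0.72 SE, adjusted p = 0.00626 by DESeq2), and the call was lost without cave replicate 3 (adjusted p = 0.073) or surface replicate 3 (0.0591). Mylk4a had a median of 363 CPM in skeletal muscle, against 14.5 in heart. It fell in young muscle too, with means of 2611 in cavefish and 9101 in surface fish (-1.80, adjusted p = 0.00635). The difference between heart and muscle was -0.85 (adjusted p = 0.856), both by DESeq2. How multiply mapping reads were counted was not stated, so counts of such paralogs are uncertain.

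Other named falls had varied roles. Median CPM was higher in brain than in heart for rab3aa (134.5 against 5.46), rgs6 (77 against 14.9) and nrp2a (101.7 against 10.3). The same held for camta1a (124.8 against 3.01) and FAM184A (168.1 against 1.21), but not for rhbdl2 (0.57 against 3.30). It also held for iqsec3b (99.7 against 4.00), which rose. Rab3aa encodes a small GTPase of regulated vesicle release, and it had 9.79, 14.2 and 20.8 normalized counts in cave hearts, against 72.1, 98.0, 108.1 and 75.0 in surface hearts. Both tools called it (log2 fold change -2.58 ± 0.47 SE, adjusted p = 5.53e-06 by DESeq2 and 0.044 by edgeR). Rgs6 encodes a regulator that shortens signalling by G proteins and that, in mice, tempers vagal slowing of the heart. It had 71.4, 20.3 and 56.2 in cave hearts, against 197, 752, 359 and 149 in surface hearts. No cave heart reached the lowest surface heart (-2.89 ± 0.67 SE, adjusted p = 0.000928 by DESeq2, 0.11 by edgeR). Nrp2a, a neuropilin that serves as co-receptor for semaphorins and vascular growth factors, had 40.1, 72.0 and 29.3 in cave hearts, against 760, 195, 168 and 318 in surface hearts. It fell in young hearts (-2.93 ± 0.63 SE, adjusted p = 0.000273) and in aged hearts (-1.55, adjusted p = 0.00279), both by DESeq2. Rhbdl2, a rhomboid protease of the membrane, fell by 2.72 on the log2 scale (adjusted p = 0.00148 by DESeq2). Camta1a, a calmodulin-binding transcription factor, fell by 2.81 (adjusted p = 0.00757 by DESeq2, and 0.0657 without surface replicate 2). FAM184A fell by 3.06 (adjusted p = 0.00019 by DESeq2), but its symbol stands on several gene identifiers and its counts are uncertain.

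Of the 33 core genes with a symbol, 22 fell and 11 rose. Some of the 22 were named for what they do after their values were seen. Cish, a feedback inhibitor of cytokine receptors, had 120, 118 and 115 normalized counts in cave hearts, against 424, 241, 314 and 297 in surface hearts (log2 fold change -1.44 ± 0.33 SE, adjusted p = 0.000691 by DESeq2). ERRFI1, a feedback inhibitor of the EGF receptor, had 133, 267 and 271, against 1191, 512, 860 and 492 in surface hearts (-1.77 ± 0.47 SE, adjusted p = 0.00609 by DESeq2). In both genes the highest cave heart lay under the lowest surface heart. WARS1, which charges tRNA with tryptophan, had 88.1, 133 and 106 in cave hearts, against 250, 303, 294 and 269 in surface hearts (-1.36 ± 0.30 SE, adjusted p = 0.000505 by DESeq2). Slc43a1b, a carrier of large neutral amino acids, had 335, 143 and 354, against 1100, 804, 731 and 1014 in surface hearts (-1.72 ± 0.41 SE, adjusted p = 0.00159 by DESeq2). These 4 falls had edgeR adjusted p-values between 0.0627 and 0.0992.

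Among named rises, 4 were called by both tools. Tjp2a encodes the junction scaffold ZO-2. It had 242, 348 and 89.1 normalized counts in cave hearts, against 8.16, 19.3, 27.24 and 26.5 in surface hearts. All cave hearts were higher (log2 fold change 3.47 ± 0.61 SE, adjusted p = 2.14e-06 by DESeq2 and 0.0475 by edgeR). In aged hearts the populations overlapped, with 130, 103, 94.5 and 28.9 in cavefish and 165, 63.4, 276 and 122 in surface fish, and the difference of fold changes between aged and young hearts was -4.26 (adjusted p = 0.000372 by DESeq2). Niban1a, a stress-responsive gene whose human counterpart modulates translation, had 106, 69.0 and 62.3 in cave hearts, against 6.80, 5.62, 16.2 and 7.06 in surface hearts. Its rise was 3.14 ± 0.58 (SE, adjusted p = 8.37e-06 by DESeq2 and 0.044 by edgeR).

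Agmo encodes the monooxygenase that cleaves ether lipids. It had 59.7, 184 and 81.8 normalized counts in cave hearts, against 17.7, 16.9, 11.9 and 15.9 in surface hearts. Surface hearts were nearly equal and cave hearts higher by a varying amount (2.80 ± 0.55 SE, adjusted p = 4.45e-05 by DESeq2 and 0.0485 by edgeR). In aged hearts its fold change was -0.49 (adjusted p = 0.694 by DESeq2). Cmbl, a hydrolase known in humans for activating ester prodrugs, had 160, 184 and 220 in cave hearts, against 32.6, 63.5, 42.6 and 36.2 in surface hearts. It rose by 2.09 ± 0.39 (SE, adjusted p = 1.37e-05 by DESeq2 and 0.044 by edgeR), and it also rose in aged hearts (1.37, adjusted p = 0.0357 by DESeq2). Gabbr2, a subunit of the metabotropic GABA receptor, was called by both tools as well but lay under the minimum of 50 normalized counts, with 38.2, 18.3 and 26.9 in cave hearts, against 0, 0.803, 0 and 0 in surface hearts.

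PAX3, a transcription factor of neural crest and muscle precursors, had 44.0, 207 and 203 normalized counts in cave hearts, against 20.4, 6.43, 4.26 and 6.18 in surface hearts. The groups did not overlap (log2 fold change 4.07 ± 0.75 SE, adjusted p = 7.19e-06 by DESeq2, 0.0541 by edgeR). In aged hearts it had 512, 97.9, 76.6 and 304 in cavefish, against 73.3, 24.4, 42.6 and 16.5 in surface fish (2.66, adjusted p = 0.00296 by DESeq2). Iqsec3b, an exchange factor for ARF GTPases known from synapses, had 89.1, 112 and 138 in cave hearts, against 13.6, 15.3, 4.26 and 1.76 in surface hearts. It rose in young hearts (3.71 ± 0.69 SE, adjusted p = 9.5e-06) and in aged hearts (2.14, adjusted p = 0.0111), both by DESeq2. Fbxo32, named after its values were seen, encodes the muscle ubiquitin ligase atrogin-1. It had 201, 257 and 601 in cave hearts, against 88.4, 32.1, 92.8 and 46.8 in surface hearts, and it stayed called with each library left out (2.44 ± 0.57 SE, adjusted p = 0.000975 by DESeq2).

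The other 6 named rises were lost without cave replicate 3. They include guidance and adhesion genes. Sema3c, a secreted semaphorin that patterns the outflow tract in mice, had 58.7, 388 and 101 normalized counts in cave hearts, against 0, 20.9, 17.0 and 17.6 in surface hearts (log2 fold change 3.70 ± 0.93 SE, adjusted p = 0.003 by DESeq2, and 0.202 without cave replicate 3). Aged hearts, in which that library has no part, had 47.6, 97.9, 63.3 and 74.8 in cavefish, against 6.05, 9.75, 13.8 and 12.6 in surface fish. Sema3c was thus higher in cavefish at both ages (aged log2 fold change 2.77, adjusted p = 8.15e-08 by DESeq2). Mxra5a, a matrix remodelling gene, had 45.0, 143 and 6.10 in cave hearts, against 4.08, 0.803, 0 and 2.65 in surface hearts (5.19 ± 1.18 SE, adjusted p = 0.000659 by DESeq2, and 0.152 without cave replicate 3). It also rose in aged hearts (2.66, adjusted p = 0.000872 by DESeq2).

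Unc5b, a netrin receptor, had 37.2, 197 and 75.7 normalized counts in cave hearts, against 8.16, 15.3, 18.7 and 8.82 in surface hearts (log2 fold change 3.01 ± 0.69 SE, adjusted p = 0.000758 by DESeq2, and 0.0969 without cave replicate 3). Its aged fold change had the opposite sign, at -1.2 (adjusted p = 0.189), and the difference between ages was -4.20 (adjusted p = 0.000833), both by DESeq2. Itga6b, an integrin subunit that binds laminin, had 103, 153 and 22.0 in cave hearts, against 2.72, 9.64, 11.9 and 11.5 in surface hearts (3.35 ± 0.76 SE, adjusted p = 0.000695 by DESeq2, and 0.0692 without cave replicate 3). Plcd3a, a phospholipase C, owed most of its mean to 1 library, with 35.2, 873 and 142 in cave hearts, against 27.195, 34.5, 29.8 and 25.6 in surface hearts. Its log2 fold change was 3.58 with cave replicate 3 (adjusted p = 0.00144) and 1.59 without it (0.278), both by DESeq2. The remaining rise, of si:dkey-19b23.13, was lost without any of 4 libraries, with an adjusted p of 0.527 without cave replicate 3, 0.104 without cave replicate 4, 0.0999 without surface replicate 2 and 0.126 without surface replicate 3, all by DESeq2.

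The tested part of the contractile programme showed no call. Its list held 96 symbols and only 14 genes of it were tested, so much of it was not seen. Mylk4b and mylk4a, called above, were not in that list. Of 14 tested genes of the sarcomere and Z-disc neither DESeq2 nor edgeR called any, with 3 at an unadjusted p under 0.05 by each tool, and fold changes were positive for 7 and negative for 7. Myl7, the atrial myosin light chain that fish hearts express at very high level, had 84235, 85686 and 151473 normalized counts in cave hearts, against 166050, 77609, 78717 and 37760 in surface hearts. The groups overlapped and the log2 fold change was 0.25 ± 0.53 (SE, adjusted p = 0.883 by DESeq2). Among 36 tested ribosomal protein genes 29 had a positive fold change, with a median of 0.06 (0.03 with TMM factors and 0.16 with library totals), and DESeq2 and edgeR called none, with 0 at an unadjusted p under 0.05 by each tool. In all, 11 of 20 programme lists had tested members and no call, including calcium handling, ion channels, adrenergic signalling, oxidative stress, innate immunity and the cell cycle. Tested members were 3 for innate immunity and 4 each for calcium handling, adrenergic signalling and the cell cycle. Ion channels had 5 and oxidative stress 14, so most of each programme was not seen. Of the 109 genes tested in them, 10 had an unadjusted p under 0.05 by DESeq2 (17.6% of all genes tested did) and 7 by edgeR, which called none. No mitochondrially encoded gene carried a symbol.

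Clock and light-response genes were in that group. Cry1a and per2, a light-induced cryptochrome and period gene of fish, had log2 fold changes of -0.35 (adjusted p = 0.739) and 0.47 (adjusted p = 0.784) by DESeq2, with overlapping groups. Ddb2, which recognises ultraviolet damage in DNA, had 525, 309 and 338 normalized counts in cave hearts, against 269, 248, 268 and 155 in surface hearts. The groups did not overlap, but the difference was not called (0.73 ± 0.37 SE, adjusted p = 0.284 by DESeq2, 0.302 by edgeR). Cpdp, a photolyase gene, had 141, 22.3 and 30.5 in cave hearts, against 57.1, 57.0, 55.3 and 97.1 in surface hearts (-0.04, adjusted p = 0.989 by DESeq2, and -1.34 to 0.36 with a library left out). In aged hearts it was higher in cavefish without overlap (0.95, adjusted p = 0.0417 by DESeq2). Of 11 tested genes of DNA repair and damage response, gadd45ga alone was called, a share near the 7.51% of all genes with a symbol. It encodes a stress sensor of the growth arrest family and had 163, 169 and 211 in cave hearts, against 2484, 344, 941 and 222 in surface hearts (-2.46 ± 0.75 SE, adjusted p = 0.0227 by DESeq2). Its call was lost without cave replicate 2 (adjusted p = 0.0847), cave replicate 3 (0.118), surface replicate 1 (0.133) or surface replicate 3 (0.0621). In aged hearts gadd45ga was higher in cavefish (1.61, adjusted p = 0.0227 by DESeq2).

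The remaining list calls lay in 4 further lists, and each was lost when 1 of several libraries was left out. In fatty acid handling PPARG, the nuclear receptor of fat storage, had 152, 239 and 348 normalized counts in cave hearts, against 128, 41.8, 58.7 and 67.1 in surface hearts (1.75 ± 0.52 SE, adjusted p = 0.0171 by DESeq2). It was 1 of 16 tested genes there, near the 7.51% of all genes with a symbol, and its adjusted p was 0.11 without cave replicate 3, 0.151 without cave replicate 4, 0.0923 without surface replicate 2 and 0.0865 without surface replicate 3. Among 11 tested genes of heart regeneration 2 were called, beside 7.51% of all genes with a symbol. Of these wnt2bb, a Wnt ligand, had 1265, 625 and 1475 in cave hearts, against 509, 286, 494 and 169 in surface hearts (1.62 ± 0.51 SE, adjusted p = 0.0295 by DESeq2). It rose in aged hearts too (2.05, adjusted p = 0.00571 by DESeq2), while its young call was lost without cave replicate 2 (0.122), cave replicate 4 (0.169) or surface replicate 2 (0.135). The Notch ligand jag2b was highest in cave replicate 3, with 225, 1901 and 510 in cave hearts, against 252, 260, 208 and 176 in surface hearts (adjusted p = 0.0445 by DESeq2). Without that library its adjusted p was 0.635, and it was 0.0727 to 0.127 without any single surface library. Of 15 tested immediate early genes 2 were called, beside the same 7.51%. Jund rose (1.26, adjusted p = 0.0327) and nr4a3 fell (-1.86, adjusted p = 0.0444), both by DESeq2. The call of jund was lost without cave replicate 3 (adjusted p = 0.222), cave replicate 4 (0.199), surface replicate 1 (0.0849), surface replicate 2 (0.146) or surface replicate 4 (0.0636). That of nr4a3 was lost without cave replicate 2 (0.167), cave replicate 3 (0.258), surface replicate 1 (0.173), surface replicate 2 (0.0506) or surface replicate 4 (0.0583). Nr4a3, an inducible nuclear receptor, was also the single call among 11 genes of cardiac stress, again near that share.

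**Figure D4:**
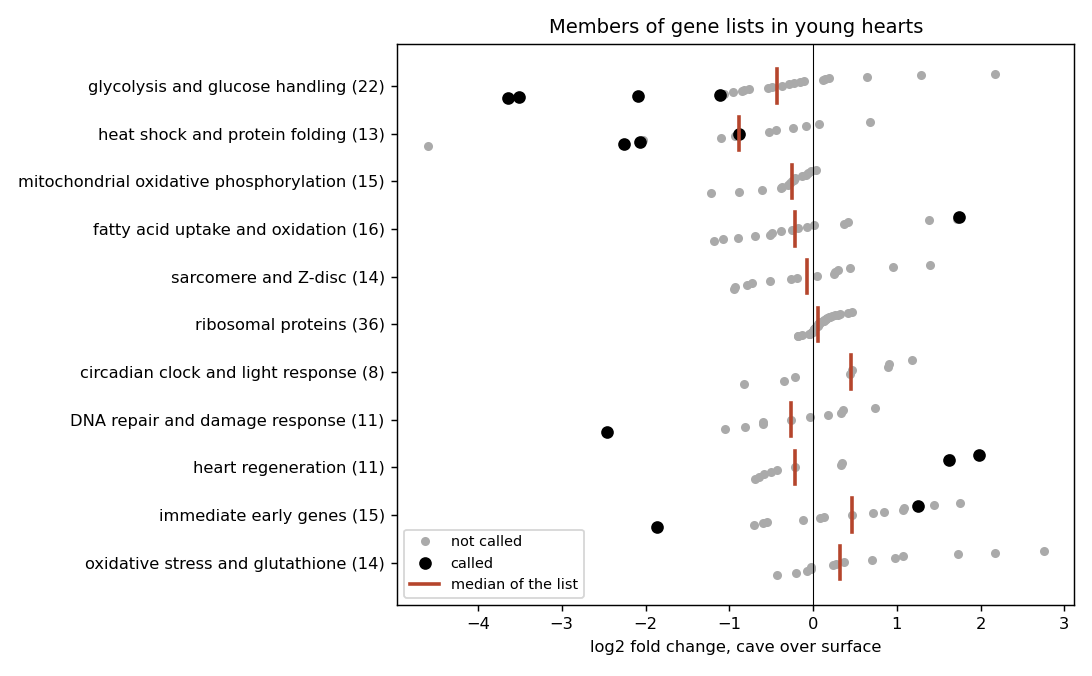
Log2 fold changes of young cave over young surface heart for the tested members of 11 programme lists (number tested in parentheses), with called members in black and a bar at the median of the list. Glycolysis and glucose handling (4 of 22 fell) and heat shock (3 of 13 fell) hold 7 of the calls drawn.

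Summed markers of skeletal muscle and of epicardium, fibroblasts and matrix did not overlap between the groups, while those of the other cell types listed did. The summed normalized counts of 3 skeletal muscle markers (mylz3, actn3b and acta1b) were 9312, 17680 and 17860 in cave hearts, against 83550, 20230, 47370 and 21350 in surface hearts, without overlap. Nearly all of it was acta1b, a skeletal actin, with a log2 fold change of -1.53 ± 0.58 (SE, adjusted p = 0.0939 by DESeq2). On a wider set of 63 muscle-specific genes, chosen by the rule of the heart-specific ones, the groups overlapped. Its share of counts was 0.129% to 0.162% in cave hearts, against 0.0967% to 0.255% in surface hearts. Epicardial, fibroblast and matrix markers (7 genes) summed to 8160, 12120 and 4070 in cave hearts, against 3061, 3812, 3427 and 2952 in surface hearts, again without overlap. Fn1a and thbs1b, at 7139 in cave replicate 3 and 4596 in cave replicate 2, gave most of the 2 highest sums, and thbs1a, a matrix thrombospondin, was the called member (1.13 ± 0.33 SE, adjusted p = 0.0168 by DESeq2, and 0.207, 0.13, 0.118 and 0.103 without cave replicates 3 and 4 and surface replicates 2 and 3, each left out alone). Pdgfra, a receptor that marks fibroblasts, went the other way with 55.8, 85.2 and 104 in cave hearts, against 158, 286, 262 and 124 in surface hearts (-1.35, adjusted p = 0.0516 by DESeq2). Sums for cardiomyocyte (1 gene), erythrocyte (1), endothelial (2), smooth muscle (4), leukocyte (2), nerve (1) and pancreas and gut (3) markers overlapped between the groups. The overlap of the smooth muscle sums was slight, at 6062, 9689 and 5560 in cave hearts, against 5561, 4898, 5376 and 3870 in surface hearts. The part of these cell types in the differences above was not tested. Of all genes tested that were not liver-abundant 6.22% were called. Genes at least 4 times higher in gut than in heart held 74 rises and 17 falls of 759 tested (12%), and 30 rises and 7 falls without cave replicate 3. Those of brain held 141 rises and 65 falls of 2962 (6.95%, near the share of all genes), and 46 and 31 without that library. Those of skeletal muscle held 23 rises and 17 falls of 407 (9.83%), and 5 and 9 without it.

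Several genes with no symbol differed almost as presence against absence. Reads of both populations were mapped to the same reference genome. Whether such a gene is missing or altered in the genome of 1 population was not tested. In 7 genes every surface library had at most 3 counts while every cave library had at least 50 normalized counts, and in 2 genes the reverse held. ENSAMXG00000033890 had 232, 205 and 201 normalized counts in cave hearts and no count in any surface heart. This was at least 304-fold higher in cave hearts, against a floor of 3 counts over the surface group, and was called by both tools (adjusted p = 7.92e-17 by DESeq2 and 0.0126 by edgeR). ENSAMXG00000037466 had no count in any cave heart and 235, 318, 300 and 889 in surface hearts, at least 410-fold lower in cave hearts (adjusted p = 9.47e-14 by DESeq2 and 0.025 by edgeR). ENSAMXG00000030986 likewise had no count in cave hearts and 143, 69.9, 63.0 and 53.8 in surface hearts, at least 77.6-fold lower (adjusted p = 1.36e-08 by DESeq2). In young muscle ENSAMXG00000033890 (8.10, adjusted p = 1.35e-09), ENSAMXG00000037466 (-6.05, adjusted p = 4.81e-14) and ENSAMXG00000030986 (-4.01, adjusted p = 2.88e-05) were called the same way, all by DESeq2. Another of the 9 genes was not called there (-0.53, adjusted p = 0.875 by DESeq2). The differences in young heart were also called in aged hearts for 8 of the 9 genes.

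The ninth gene, ENSAMXG00000005227, behaved otherwise. It had 2031, 3720 and 4541 normalized counts in young cave hearts, against 4.08, 0, 0 and 0.882 in young surface hearts (log2 fold change 11.77 ± 0.88 SE, adjusted p = 8.35e-37 by DESeq2). In aged hearts it had 1242, 449, 704 and 2255 in cavefish, against 1361, 1525, 2877 and 3.15 in surface fish. Among surface hearts 3 of the 4 aged libraries therefore had high counts and all 4 young ones almost none, and the difference between ages was -11.95 (adjusted p = 1.52e-09 by DESeq2). Young muscle differed in the same way as young heart (8.61, adjusted p = 1.87e-18 by DESeq2). The called gene with the highest group mean of counts, not corrected for length and chosen after its values were seen, also had no symbol. Its median was 2971 CPM in heart, 67.3 in skeletal muscle, 8.87 in gut and 0 in brain and liver. It had 1881, 3861 and 3280 normalized counts in cave hearts, against 165008, 49796, 73437 and 32936 in surface hearts (-4.74 ± 0.58 SE, adjusted p = 5.1e-13 by DESeq2 and 0.0303 by edgeR). It was lower in aged cave hearts as well (-1.61, adjusted p = 7.67e-06), but by less. The difference between ages was 3.14 (adjusted p = 0.000833), both by DESeq2.

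Liver-abundant genes were counted apart because the share of liver-like counts varied between libraries. DESeq2 called 38 of the 621 tested (6.12%), 25 higher and 13 lower, with a median log2 fold change of 0.30 over those tested. EdgeR called 3, all higher. The count was 17 without cave replicate 3, 60 without cave replicate 4 and 24 without surface replicate 3, and 10 genes were called with every library left out in turn. Of the 9 called genes with a symbol 7 were higher. Decr2, a peroxisomal reductase for unsaturated fatty acids, had 20.6, 27.4 and 10.99 normalized counts in cave hearts, against 113, 67.5, 86.0 and 64.4 in surface hearts. It fell in young hearts (-2.06 ± 0.49 SE, adjusted p = 0.00145), aged hearts (-2.65, adjusted p = 0.000112) and young muscle (-2.41, adjusted p = 0.00669), all by DESeq2. Aged hearts had 25.7, 46.9, 60.5 and 15.3 in cavefish, against 134, 119, 399 and 292 in surface fish. The highest were aged surface replicates 7 and 8, which had 7.97% and 18.7% of their counts on liver-abundant genes. Dennd2b, an exchange factor for Rab GTPases, had 290, 315 and 325 in cave hearts, against 144, 76.3, 86.8 and 92.7 in surface hearts (1.64 ± 0.35 SE, adjusted p = 0.000209 by DESeq2). The liver share was highest in cave replicate 2 and surface replicate 4. Fits with that share as covariate, or without both of these libraries, are given below for the other genes only. The part of the liver share in the differences of liver-abundant genes was not tested. Slc5a8l, a carrier of the sodium-coupled monocarboxylate family, was highest in cave replicate 3, with 52.8, 186 and 2.44 in cave hearts, against 2.72, 0, 0 and 2.65 in surface hearts.

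Apoa1a, the main apolipoprotein of fish plasma lipoproteins, stood in the list of hepatocyte markers, but its median was 198 CPM in gut and 0.509 CPM in liver in these data, so it did not mark liver here. It had 739, 20093 and 3.66 normalized counts in cave hearts, against 5.44, 0, 0 and 0 in surface hearts. The cave hearts ranged widely and the lowest of them lay within the surface range. The log2 fold change was 12.37 ± 2.99 (SE, adjusted p = 0.00163) with cave replicate 3 and 8.15 (adjusted p = 0.257) without it, both by DESeq2. Cave replicate 3 was also the library with the highest share of gut-specific counts. Apoa1a itself meets the rule for those genes (at least 100 CPM and 16 times the median of each other tissue). Its own counts are therefore part of that share, which is no separate observation. The part of gut-specific genes in this difference was not tested. The other 4 hepatocyte markers with a symbol overlapped between the groups, such as apoba with 299, 165 and 7.32 in cave hearts, against 670, 4.02, 94.5 and 362 in surface hearts.

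The same populations were compared in aged hearts, a set of libraries that the young comparison did not use. DESeq2 called 1099 of 14196 genes there (7.74%), 643 higher and 456 lower in cavefish, and edgeR called 281. Of the 835 young calls, 248 were called in the same direction in aged hearts (155 higher and 93 lower) and 5 in the opposite one, so that the shared calls made up 29.7% of young and 22.6% of aged calls. A fold change of the same sign was found for 674 of 834 young calls (80.8%), and for 60.3% of all 13427 genes with both fold changes. Among the 275 core genes 237 had the same sign and 135 were called. Of the 336 calls kept without cave replicate 3, 157 were called in aged hearts, and of the 499 lost without it 91 were. EdgeR called 40 genes in the same direction at both ages and 0 in opposite directions, while DESeq2 called those 5. The labels of the aged cave libraries conflict, since their attribute says aged and their description says young, and the attribute was followed. Liver-abundant genes took 0.625% to 12.5% of counts in aged cave hearts and 0.572% to 18.7% in aged surface hearts. In the young libraries compared they took at most 5.94%. The part of this share in the differences of aged hearts was not tested.

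**Figure D5:**
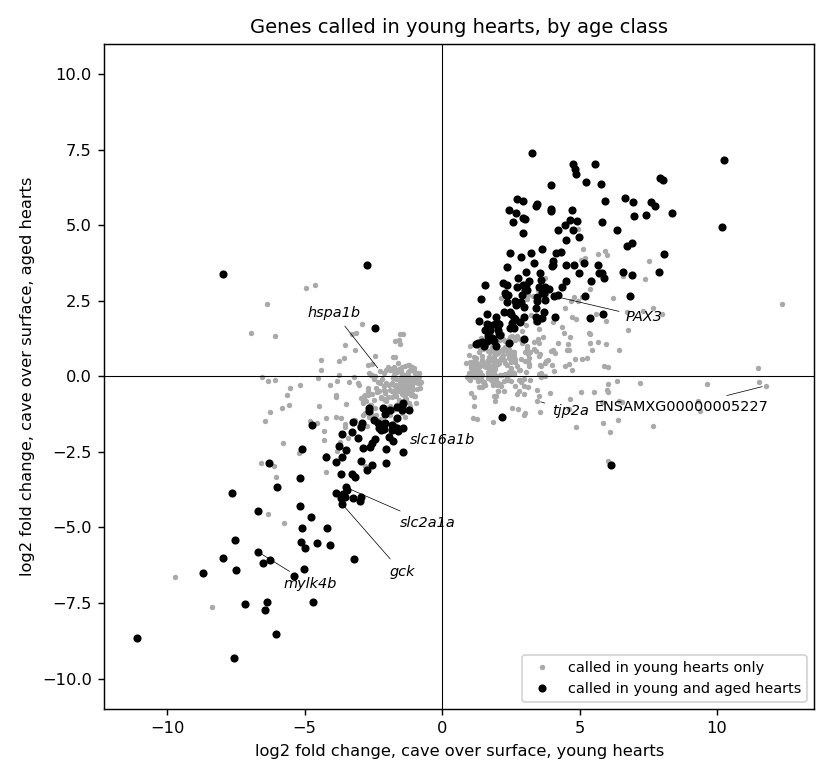
Log2 fold change of cave over surface in aged heart (vertical axis) against that in young heart (horizontal axis) for 834 genes called in young heart, with genes called in aged heart too in black and 1 gene beyond the axis not drawn. Of these genes 248 were called in the same direction and 5 in the opposite one, and 674 have the same sign at both ages.

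Skeletal muscle, the other striated muscle of the series, was used to ask which differences were unlike those of a second tissue. The interaction of tissue and population was called for 174 of 13755 genes (1.26%) by DESeq2, with the 7 heart and 8 muscle libraries in a single fit. Of the 835 young heart calls 98 had a called interaction, and the muscle fold change was of the opposite sign in 72 of them. Picking genes by a difference between the tissues favours opposite signs. Their share over all 835 calls was not counted, so the 72 are no separate result about muscle. EdgeR called 2 interactions, with 1069 at an unadjusted p under 0.05, and DESeq2 called 111 without cave heart replicate 3. In young muscle itself 119 of the 835 heart calls were called in the same direction and 3 in the opposite one. The share of all genes called there was not counted, so no excess among the heart calls can be read from this. The kinase mylk4b, present in muscle at means of 174 normalized counts in cavefish and 304 in surface fish, was among the named genes whose fall differed from muscle by this test, and hspa1b was another (-1.96, adjusted p = 0.0315 by DESeq2). Slc16a1b fell in both tissues by nearly the same amount, with an interaction of 0.03 (adjusted p = 0.993 by DESeq2).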

How the data were processed

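Poly-T selected RNA of TRIzol extracts from hearts, dissected early in the light phase, was sequenced. The authors mapped the reads of both populations to the same reference genome with STAR. They deposited STAR's raw counts per Ensembl gene, in 1 table of 19076 genes per tissue and no normalization. Neither the strand setting nor the handling of multiply mapping reads was stated, so counts of overlapping genes and of close paralogs are uncertain. Every column was matched to 1 sample by name. Total counts per library compared were 7877456 to 11163901, and intervals cover counting error only.

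DESeq2 (version 1.42.0, R 4.3.3), the tool of the study, was fitted to the 7 libraries with population as the only term, with its size factors, Cook filter and independent filtering, and a gene was called where its p, adjusted by Benjamini-Hochberg over all genes, was under 0.05. EdgeR (version 4.0.16, quasi-likelihood test, TMM, filterByExpr) was run beside it. Medians for the liver rule came from 16 liver and 15 heart libraries. Normalized counts are counts divided by size factors. Aged hearts were fitted apart, and muscle by an interaction term. The scripts were tested on simulated counts.

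Symbols were at hand for 2080 genes, paired with identifiers in the study's tables on ultraviolet response, and these genes are not a random sample. The members and the 30 gene lists were chosen with earlier results of these data known, and lists are described without a test. Named genes were the 12 largest rises and falls among genes with a symbol, at least 50 normalized counts and no overlap between groups (those called by both tools first), the 2 largest each way without a symbol, up to 6 called members per list, liver-abundant genes by adjusted p, a few genes of the study and genes absent from 1 population. Of the genes without a symbol only 4 are given by identifier. Pairs of libraries of 1 group differed by more than sampling noise, so none was counted as a repeat.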

Additional observations from a re-analysis of the deposited data

Results flagged for a closer look

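Values of 1 surface heart lay far from the other 3 for 7 of 46 genes by Dixon's criterion, which chance meets in about 1 of 20 groups. They were niban1a with 16.2 normalized counts in surface replicate 3, PAX3 with 20.4 in surface replicate 1, tomm22 with 533 in surface replicate 3, ENSAMXG00000037466 with 889 in surface replicate 4, apoa1a with 5.44 in surface replicate 1, per2 with 789 in surface replicate 1 and cpdp with 97.1 in surface replicate 4. No library held more than 3 of them.

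The cave against surface fold change in young heart differed from that in young muscle for 11 of the genes named by rule above, by the interaction in DESeq2. The difference, heart minus muscle on the log2 scale, was 4.15 for sema3c, 3.87 for plcd3a, 4.92 for itga6b, 4.22 for si:dkey-19b23.13, 2.77 for thbs1a, 3.40 for wnt2bb and 12.38 for apoa1a. It was -5.89 for mylk4b, -1.96 for hspa1b, -5.85 for slc2a1a and -3.78 for FAM184A. The young heart calls of sema3c, plcd3a, itga6b, si:dkey-19b23.13, thbs1a and apoa1a were lost without cave replicate 3. Of the 174 interaction calls 84 were lost without that library. Slc2a1a was nearly absent from muscle, with means of 1.09 normalized counts in cavefish and 0 in surface fish, so its value compares heart with a tissue that lacks the transcript. Among other genes given above, cish (-2.43, adjusted p = 0.00201), fbxo32 (2.82, adjusted p = 0.00304) and dennd2b (1.87, adjusted p = 0.0302) also differed by this interaction in DESeq2.

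Between aged and young heart the same fold change differed for 6 of the genes named by rule above, by an interaction in DESeq2. The difference, aged minus young, was -4.26 for tjp2a, -3.28 for agmo, -4.77 for plcd3a, -4.20 for unc5b, -11.95 for ENSAMXG00000005227 and 4.08 for gadd45ga. The young heart calls of plcd3a, unc5b and gadd45ga were lost without cave replicate 3. Among other genes given above, slc5a8l (-7.02, adjusted p = 0.0285) and the called gene with the highest group mean (3.14, adjusted p = 0.000833) also differed, both by DESeq2. The young call of slc5a8l was lost without cave replicate 3 (adjusted p = 0.175 by DESeq2). Young cave heart replicate 1, which entered no comparison, had 81.5% of its counts on liver-abundant genes.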

How the results depend on the processing

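The count of 835 calls outside the liver-abundant genes became 104 with edgeR, 1337 when all 15 heart libraries shared a fit and 541 when genes at least 4 times higher in brain, gut or muscle were also left out, an alternative added after the data were seen. With a library left out it ranged from 362 to 1060, lowest without cave replicate 3, and it was 515 without surface replicate 2. The count of 38 liver-abundant calls became 3 with edgeR, 60 with cave replicate 1 kept, 69 and 20 with the liver rule at 2 and 8 times, 75 with medians of young surface libraries, and 17 to 60 with a library left out. The 248 calls shared with aged hearts became 40 with edgeR and 166 to 264 with a library left out, and the 174 interactions with muscle became 2 and 111 to 258. TMM factors, library totals, a count filter, no independent filtering and the liver share as covariate gave 764 to 838 calls. With the liver share as covariate, 637 of the 764 calls were among the 835. Without both cave replicate 2 and surface replicate 4 there were 1249 calls, 600 of them among the 835. The rises made up 58.0% of calls, 54.7% with TMM, 62.1% with library totals, 45.2% with edgeR and 48.9% without cave replicate 3. With the replicate number as a block there were 533 calls, 404 of them among the 835. Replicates 2, 3 and 4 had correlations of 0.019, -0.112 and -0.191 between their deviations in the 2 populations, which showed no pairing by number. With 1 library per population at each number, these values cannot decide whether the numbers pair the libraries. No called named gene changed its direction with a library left out, with edgeR, TMM factors, a count filter or the replicate block, the settings run for named genes. Of the uncalled ones, cpdp ranged from -1.34 to 0.36 (log2) and myl7 from -0.09 to 0.73 with a library left out. Of 60 genes, 16 calls were lost without cave replicate 3 and 13 with the replicate block, and edgeR lost 31 of 56. At 3 against 4 libraries and 7877456 to 11163901 counts, genes with few counts and small changes in other genes may be missed.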
